A study of Homo sapiens and Canis lupus familiaris with 27 samples.

Results

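The response of PC-3 cells to 24 h of PDA-66 was set against that of LNCaP cells, gene by gene. For each gene the log2 fold change of PDA-66 over DMSO in LNCaP was subtracted from that in PC-3, and this difference of responses was tested as the interaction of cell line and treatment. All 23708 genes listed in both count tables entered by their symbol, and 14844 of them passed the filter on low counts. The comparison used 11 of the 27 samples of the series.

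PC-3 is a human prostate adenocarcinoma line derived from a bone metastasis and LNCaP one derived from a lymph node metastasis. Both received 15 µM PDA-66 for 24 h (3 samples of each line), and the controls received 0.15% DMSO, the solvent, without PDA-66 (2 samples of PC-3 and 3 of LNCaP). The authors had left a further PC-3 control out as an outlier, and it was not analysed here. Replicates were described as independent biological samples. PC-3 grew in DMEM/Ham's F-12 and LNCaP in RPMI medium, so medium and line cannot be told apart, and each line stems from 1 tumor, not from a sample of patients. In such bulk RNA, fewer cells of one state and less RNA per cell cannot be told apart either.

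PDA-66 is an indolylmaleimide derivative that destabilizes microtubules, the polymers of alpha and beta tubulin that build the mitotic spindle. Cells sense free tubulin dimers and degrade tubulin messages when the dimers are in excess. PC-3 and LNCaP also differ in lineage state, since LNCaP keeps the luminal, androgen-responsive program of prostate epithelium and PC-3 grows without it.

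The lineage markers KLK3 and vimentin separated the lines, but not every such marker did. The luminal gene HOXB13 was higher in the PC-3 than in the LNCaP DMSO samples, as given below. KLK3, which encodes prostate-specific antigen, had no read in any PC-3 library and 68, 26.1 and 52.1 CPM (counts scaled to the size of the library) in the LNCaP DMSO samples. Vimentin (VIM) was at 1805 and 2488 CPM in the PC-3 and 14.9, 13.7 and 12.3 CPM in the LNCaP DMSO samples. Of 8 tested markers of blood, vessel and stroma, 1 had a different response (12.5% beside 15% of all genes tested). It was CD68 (-1.200 ± 0.25 log2, SE), a lysosomal gene that tumor lines also express. Exons of another gene on the same strand cover 81.6% of the exon bases of CD68. The leukocyte gene PTPRC was at 1.16 CPM or less.

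Several libraries stood apart from the rest of their group, and this bears on every count below. Counts in genes ran from 14650839 to 16326495 per library in PC-3 and from 11923105 to 14579939 in LNCaP. LNCaP DMSO replicate 1 stood closer to the PDA-66 samples (correlation of log2 CPM 0.987 to 0.989) than to LNCaP DMSO replicates 2 and 3 (0.984 and 0.986), which correlated at 0.99 with each other. Both PC-3 DMSO samples also differed from each other by far more than sampling noise (chi-square per degree of freedom 35.4, against 3.12 to 15.8 among the PC-3 PDA-66 samples). In LNCaP this value was 34.6 and 31.7 for DMSO replicate 1 against replicates 2 and 3. It was 16.4 between replicates 2 and 3, against 1.85 to 4.33 among the LNCaP PDA-66 samples. No samples were close enough to be 1 library deposited again under another name.

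The 24 h response differed between the lines for 2220 of the 14844 genes, 15% of those tested, at an adjusted p under 0.05 (quasi-likelihood F test of edgeR, adjusted after Benjamini and Hochberg). For 1098 genes (7.4%) the response was higher in PC-3, and for 1122 (7.56%) it was lower. With scaling by library size only 2331 genes differed, 63.5% of them higher in PC-3, against 49.5% here. The median size of a called difference was 0.97 on the log2 scale, and 1040 called genes differed by at least 1. Over all genes tested the median difference was 0.0029.

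More genes passed in PC-3 than in LNCaP, an order that turned without LNCaP DMSO replicate 1. By itself the PC-3 response passed the test for 5501 genes (37.1%, 2743 up and 2758 down) and the LNCaP response for 3000 (20.2%, 1445 up and 1555 down). Rises and falls counted within the lists below stand beside these numbers. Among the 2220 genes with a different response, 1409 passed in PC-3 alone (667 up, 742 down), and 367 passed in LNCaP alone (163 up, 204 down). The lines moved in opposite directions for 183 genes, of which 121 rose in PC-3 and fell in LNCaP and 62 did the reverse. A further 111 genes moved the same way in both lines, 88 of them further in PC-3, and 150 passed in neither line by itself. Without LNCaP DMSO replicate 1 the LNCaP response held 5953 genes, more than the 5501 of PC-3, 476 genes moved in opposite directions and 3477 differed, of which 2144 were among the 2220. Other libraries moved these counts down. Without LNCaP PDA-66 replicates 1, 2 or 3 the LNCaP response held 820, 729 or 893 genes, and 38, 35 or 38 moved in opposite directions. Without LNCaP DMSO replicate 3 there were 1427 and 79. The count of differing genes also moved by over 1.5 times without PC-3 DMSO replicate 3 (1429), PC-3 PDA-66 replicate 2 (1367), LNCaP PDA-66 replicate 1 (1407) or LNCaP PDA-66 replicate 3 (1358). No gene called both here and in one of these fits had another sign there.

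Across the 11693 genes with a mean of 1 CPM or more in a group of each line, the responses were correlated with a Pearson r of 0.38 and a Spearman rho of 0.39, over genes that share the same libraries and are not replicates. Of these genes 2066 differed (17.7%). Of the genes at that level in PC-3 alone 106 of 1507 differed, and of those in LNCaP alone 38 of 1131, with low counts in the other line.

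**Figure D1:**
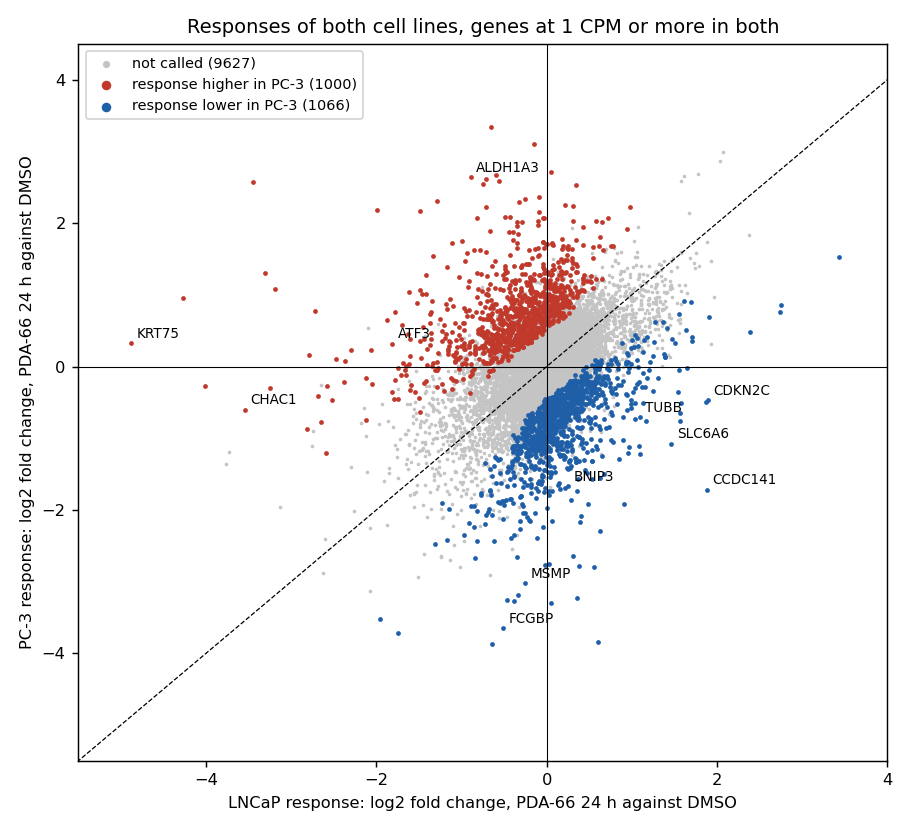
Each point is 1 of the 11693 genes at 1 CPM or more in both lines, with its LNCaP response on the horizontal and its PC-3 response on the vertical axis (log2 fold change, PDA-66 24 h over DMSO). Red points (1000 genes) had a higher and blue points (1066 genes) a lower response in PC-3, and the dashed line marks equal responses; KRT75 and CHAC1 lie far left, FCGBP and MSMP far down, and CDKN2C and CCDC141 at the lower right.

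Several tubulin genes fell in PC-3, and several rose in LNCaP. Of 16 alpha and beta tubulin genes tested, 6 had a different response, each lower in PC-3 (37.5% beside 15% of all genes). The median difference of the list was -0.53 [-0.61 to -0.25 without PC-3 DMSO replicate 3], where brackets hold, here and for the lists below, the lowest and highest median in the fits that left out 1 library, with the library named where that end turned the sign or moved by over 1.5 times. By themselves, 5 of the 16 fell and none rose in PC-3, while 5 rose and 1 fell in LNCaP. TUBB encodes the main beta tubulin of dividing cells and lies at chr6:30685212-30693315 on the plus strand (GRCh37). It was at 1277 and 1084 CPM in the PC-3 DMSO samples, 739, 699.9 and 712 CPM in PC-3 after PDA-66, 963, 718 and 611 CPM in the LNCaP DMSO samples and 1680.4, 1569 and 1649 CPM in LNCaP after PDA-66. In neither line did the groups overlap, and the line with the higher level changed from PC-3 to LNCaP. The PC-3 response was -0.71 and the LNCaP response 1.096 on the log2 scale, a difference of -1.82 ± 0.21 (± SE here and below, adjusted p = 1.02e-04).

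TUBB4B, a further beta tubulin, repeated this pattern. It was at 870.4 and 837 CPM in the PC-3 DMSO samples, 487, 463 and 556 CPM in PC-3 after PDA-66, 309.8, 219 and 201 CPM in the LNCaP DMSO samples and 562, 536 and 542 CPM in LNCaP after PDA-66. The difference was -1.93 ± 0.21 (SE, adjusted p = 6.49e-05), again with no overlap of groups within a line. TUBA1C, an alpha tubulin, fell in PC-3 (response -0.48) and rose in LNCaP (0.52; difference -1.01 ± 0.15, adjusted p = 6.83e-04). In TUBA1B, TUBA4A and TUBA1A 1 line carried the difference. TUBA1B rose in LNCaP from 467, 370.4 and 267 to 788, 751 and 779 CPM and had overlapping PC-3 groups of 786 and 619 CPM under DMSO and 765, 649.9 and 676 CPM under PDA-66 (difference -1.08 ± 0.24, adjusted p = 0.00784). TUBA4A rose in LNCaP from 105, 48.5 and 53.4 to 213, 188 and 203 CPM (difference -1.92 ± 0.34, adjusted p = 0.00202). TUBA1A, named because it completes the 6, fell in PC-3 (response -1.24) and had a response of -0.24 in LNCaP that did not pass (difference -1.02 ± 0.22, adjusted p = 0.0068).

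All 6 tubulin calls came in each of the 11 fits that left out 1 library. Tubulin genes are near-identical in sequence, so reads may be split among them, and 44% of the exon bases of TUBA1B and 17% of those of TUBA4A lie under exons of other genes.

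**Figure D2:**
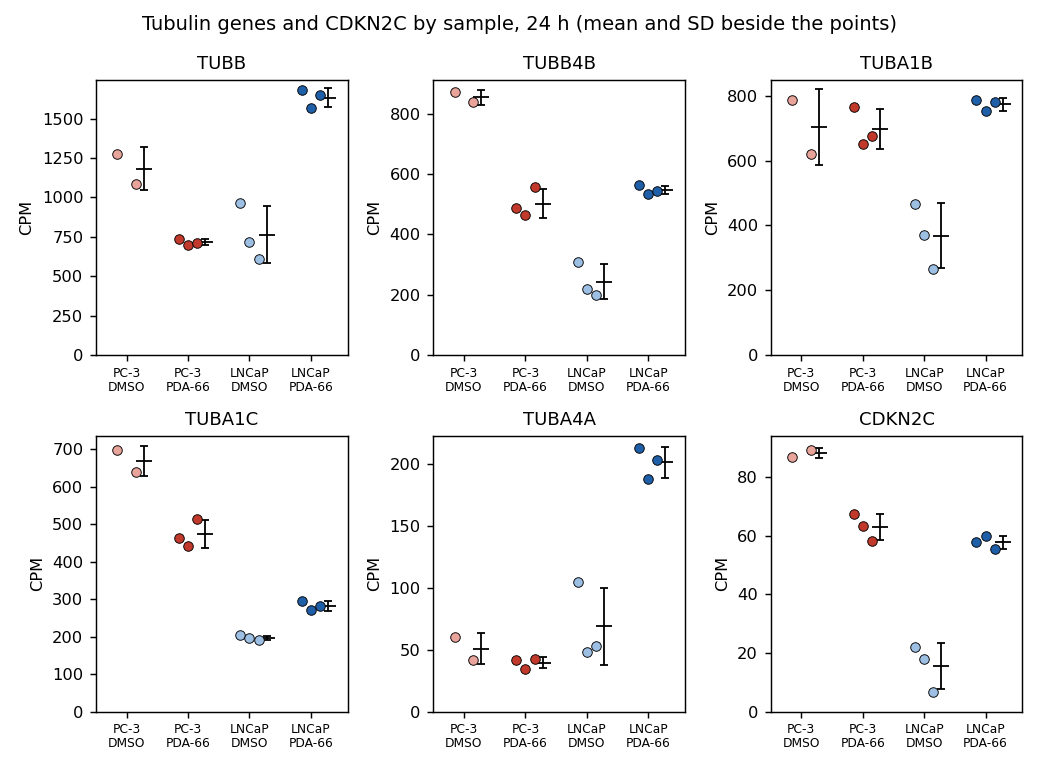
CPM of 5 tubulin genes and CDKN2C in each of the 11 samples (points), with the group mean and SD drawn beside them. TUBB, TUBB4B and TUBA1C are lower under PDA-66 in PC-3 (red) and higher in LNCaP (blue), with no overlap between a line's groups.

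Hypoxia targets and glycolytic enzymes formed the list with the highest share of calls among the 23 lists of pathways. Cells induce these genes through hypoxia-inducible factor, whose alpha subunit is degraded when oxygen is present. Of 28 genes tested, 22 differed, 21 with a lower and 1 with a higher response in PC-3, against the background of 15%. Within PC-3, 21 fell and none rose. In LNCaP, 9 rose and 2 fell. The list's median was -0.77 in PC-3 and 0.18 in LNCaP, with a median difference of -0.99 [-1.06 to -0.89]. Leaving out 1 library at a time gave 18 to 24 calls, and 14 were left with the PDA-66 12 h samples of both lines also in the fit.

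Promoter windows of BNIP3 and ALDOC are shown because both genes lead the list and their windows hold the core of the hypoxia response element. They are RefSeq windows on GRCh38.p14, from 250 bases before to 50 after the start, printed 5′ to 3′ on the gene's strand. BNIP3 is at chr10:131981874-131982173, minus strand and ALDOC at chr17:28576846-28577145, minus strand. Capitals mark ACGTG on either strand, where CACGTG, also the E-box of MYC and other factors, holds overlapping matches on both strands.
BNIP3: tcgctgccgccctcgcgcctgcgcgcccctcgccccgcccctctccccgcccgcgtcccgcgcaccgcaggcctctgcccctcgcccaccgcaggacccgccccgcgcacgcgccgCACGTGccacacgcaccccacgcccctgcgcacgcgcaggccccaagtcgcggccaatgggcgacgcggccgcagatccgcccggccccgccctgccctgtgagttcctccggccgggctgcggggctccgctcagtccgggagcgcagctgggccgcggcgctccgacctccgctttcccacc
ALDOC: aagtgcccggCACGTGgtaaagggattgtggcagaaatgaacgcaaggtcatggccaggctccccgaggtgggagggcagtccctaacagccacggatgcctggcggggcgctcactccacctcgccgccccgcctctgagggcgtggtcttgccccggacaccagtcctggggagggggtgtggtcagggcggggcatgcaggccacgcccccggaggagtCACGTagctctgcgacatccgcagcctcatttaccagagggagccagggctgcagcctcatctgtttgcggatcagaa
ACGTG occurred in 16 of the 24 list members with such a window (66.7%) and in 3657 of 11486 tested genes with one (31.8%). A match describes the letters, not binding.

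BNIP3, a mitophagy receptor (chr10:133781188-133795471 on the minus strand, GRCh37), was at 283 and 319.7 CPM in the PC-3 DMSO samples, 95.2, 98.4 and 88.3 CPM in PC-3 after PDA-66, 230.2, 203 and 178 CPM in the LNCaP DMSO samples and 236, 243 and 249 CPM in LNCaP after PDA-66. It dropped in PC-3 below every other sample and in LNCaP lay slightly above each control under PDA-66 (difference -1.93 ± 0.16, adjusted p = 1.09e-05). ALDOC, an aldolase, was at 54.7 and 48.5 CPM in the PC-3 DMSO samples, 17.2, 18.9 and 20.2 CPM in PC-3 after PDA-66, 121, 89.2 and 98.3 CPM in the LNCaP DMSO samples and 150.3, 129 and 143 CPM in LNCaP after PDA-66. It fell in PC-3 and rose in LNCaP (difference -1.91 ± 0.19, adjusted p = 3.96e-05). SLC2A1, the glucose transporter GLUT1, went from 319.9 and 303 to 90.5, 100.4 and 109.6 CPM in PC-3 and from 106, 89.1 and 113 to 121, 107 and 113 CPM in LNCaP (difference -1.79 ± 0.17, adjusted p = 2.99e-05). NDRG1, a stress-responsive gene, went from 1724 and 1481 to 596, 651 and 696 CPM in PC-3 (difference -1.51 ± 0.15, adjusted p = 4.33e-05). These 4 calls held under every alternative run.

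Neither CA9 nor VEGFA passed the test. CA9, the cell surface carbonic anhydrase, fell in PC-3 from 43.4 and 54.3 to 4.02, 3.92 and 4.4 CPM, but LNCaP had 1 read in all under DMSO and 1 under PDA-66, so no response could be measured there. VEGFA, the angiogenic growth factor, fell in both lines (responses of -1.003 in PC-3 and -1.31 in LNCaP), and the difference of 0.29 ± 0.40 did not pass (adjusted p = 0.663). HIF1A itself was at 462 and 327 CPM in PC-3 DMSO and 453, 441 and 431 CPM in PC-3 PDA-66 samples, and its difference of 0.12 ± 0.18 did not pass (adjusted p = 0.699). VEGFA was called without LNCaP DMSO replicate 1 (0.69, adjusted p = 0.00642). HIF1A was called without PC-3 DMSO replicate 2 (0.44, adjusted p = 0.0489).

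**Figure D3:**
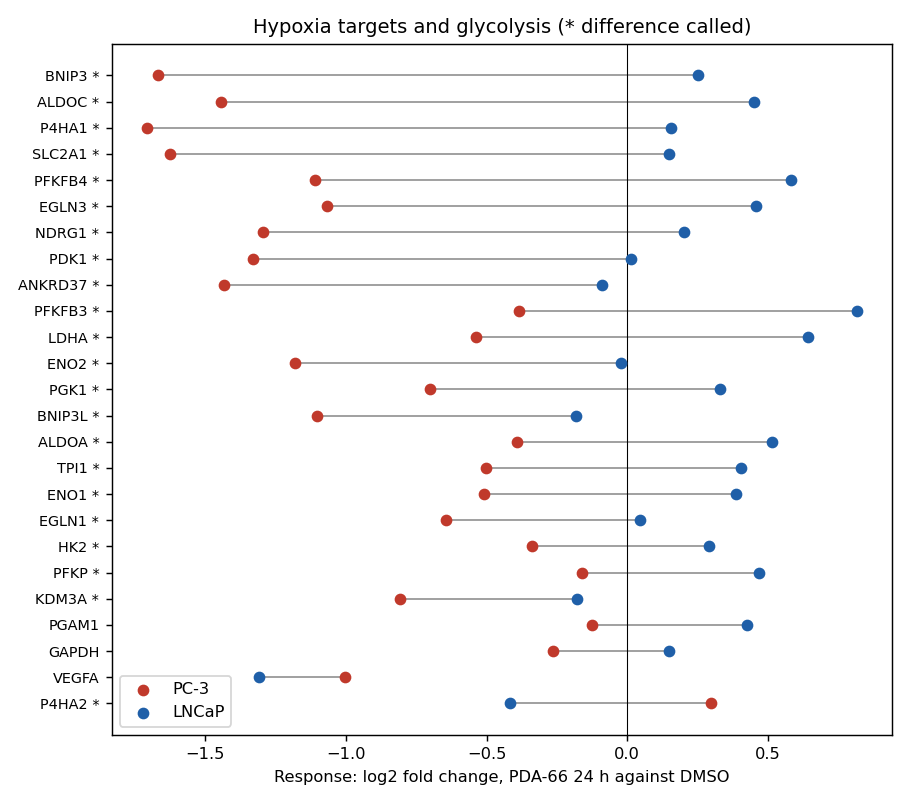
Response (log2 fold change, PDA-66 24 h over DMSO) of PC-3 (red) and LNCaP (blue) for the 25 hypoxia and glycolysis genes at 1 CPM or more in both lines, ordered by their difference. Asterisks mark genes whose difference was called; in all but VEGFA and P4HA2 the PC-3 point lies left of the LNCaP point.

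Genes of the amino acid and unfolded protein stress response fell in LNCaP, and fewer of them fell in PC-3. ATF4 is the transcription factor that activates them. Of 26 ATF4 targets tested, 9 differed, all with a higher response in PC-3 (34.6% beside 15%), and the median difference was 0.88 [0.69 to 1.26]. In LNCaP 19 of them fell and none rose, and in PC-3 7 fell and 1 rose. Among the 9 that differed, DDIT3 fell and SLC7A5 rose in PC-3, and no other passed there.

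CHAC1 and ATF3 are shown for the letters TGATGNAA, the ATF4 composite element, in capitals on either strand of their windows (RefSeq, GRCh38.p14). CHAC1 is at chr15:40953221-40953520, plus strand, and the ATF3 window with a match, 1 of the gene's 2, is at chr1:212565157-212565456, plus strand.
CHAC1: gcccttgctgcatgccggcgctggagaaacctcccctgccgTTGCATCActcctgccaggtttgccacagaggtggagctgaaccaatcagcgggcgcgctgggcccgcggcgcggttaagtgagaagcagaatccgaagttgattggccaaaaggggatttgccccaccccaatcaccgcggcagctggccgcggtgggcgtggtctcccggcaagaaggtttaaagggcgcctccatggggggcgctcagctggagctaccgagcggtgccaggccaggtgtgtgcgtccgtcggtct
ATF3: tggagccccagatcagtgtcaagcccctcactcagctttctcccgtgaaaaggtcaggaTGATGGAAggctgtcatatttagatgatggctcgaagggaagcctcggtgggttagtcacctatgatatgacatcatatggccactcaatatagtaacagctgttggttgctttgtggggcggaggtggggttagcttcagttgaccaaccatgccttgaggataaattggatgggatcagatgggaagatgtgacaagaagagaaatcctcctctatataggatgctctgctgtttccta
The element occurred in 7 of 21 list members with a window (33.3%) and in 333 of 11486 tested genes (2.9%). Of these 7, only ATF3 and CHAC1 had a called difference between the lines. Members called without the element in their windows included DDIT3, SESN2 and SLC7A5. Whether the element bears on the difference was not tested.

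ATF3, an early stress factor, was at 17 and 45.8 CPM in the PC-3 DMSO samples, 38.2, 42.7 and 35.8 CPM in PC-3 after PDA-66, 74.8, 165 and 176 CPM in the LNCaP DMSO samples and 40.1, 39.6 and 38.6 CPM in LNCaP after PDA-66. The LNCaP DMSO samples stood above all others, and the PC-3 groups overlapped (difference 2.12 ± 0.46, adjusted p = 0.00705). CHAC1, which degrades glutathione, was at 13.3 and 27.6 CPM in the PC-3 DMSO samples, 11.6, 12.7 and 16 CPM in PC-3 after PDA-66, 5.84, 30.02 and 47.1 CPM in the LNCaP DMSO samples and 2.04, 2.46 and 2.61 CPM in LNCaP after PDA-66. LNCaP DMSO replicate 1 was far below replicates 2 and 3 and still above every PDA-66 sample of that line (difference 2.93 ± 0.78, adjusted p = 0.0201). SLC7A5, a large amino acid transporter, rose in PC-3 from 381 and 328 to 495, 519 and 590.2 CPM and had 187, 250.5 and 352 CPM under DMSO and 188, 179 and 182 CPM under PDA-66 in LNCaP (difference 1.12 ± 0.26, adjusted p = 0.00958). DDIT3, the factor CHOP, fell in both lines (responses of -1.21 in PC-3 and -2.596 in LNCaP, difference 1.38 ± 0.43, adjusted p = 0.0435). ASNS, asparagine synthetase, fell in LNCaP (response -1.27), and its difference of 1.099 ± 0.46 did not pass (adjusted p = 0.125). ATF4 fell in both lines (responses of -1.100 in PC-3 and -1.15 in LNCaP, difference 0.03 ± 0.35, adjusted p = 0.99).

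Calls on this list depended on the controls. Its count moved between 2 without PC-3 DMSO replicate 2 and 20 without LNCaP DMSO replicate 1. DDIT3 was called in 2 of the 11 fits that left out 1 library (adjusted p up to 0.14). CHAC1 missed the threshold without PC-3 DMSO replicate 2 or LNCaP PDA-66 replicate 1 (adjusted p up to 0.0706). ASNS was called without LNCaP DMSO replicate 1 (1.54, adjusted p = 4.14e-05).

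**Figure D4:**
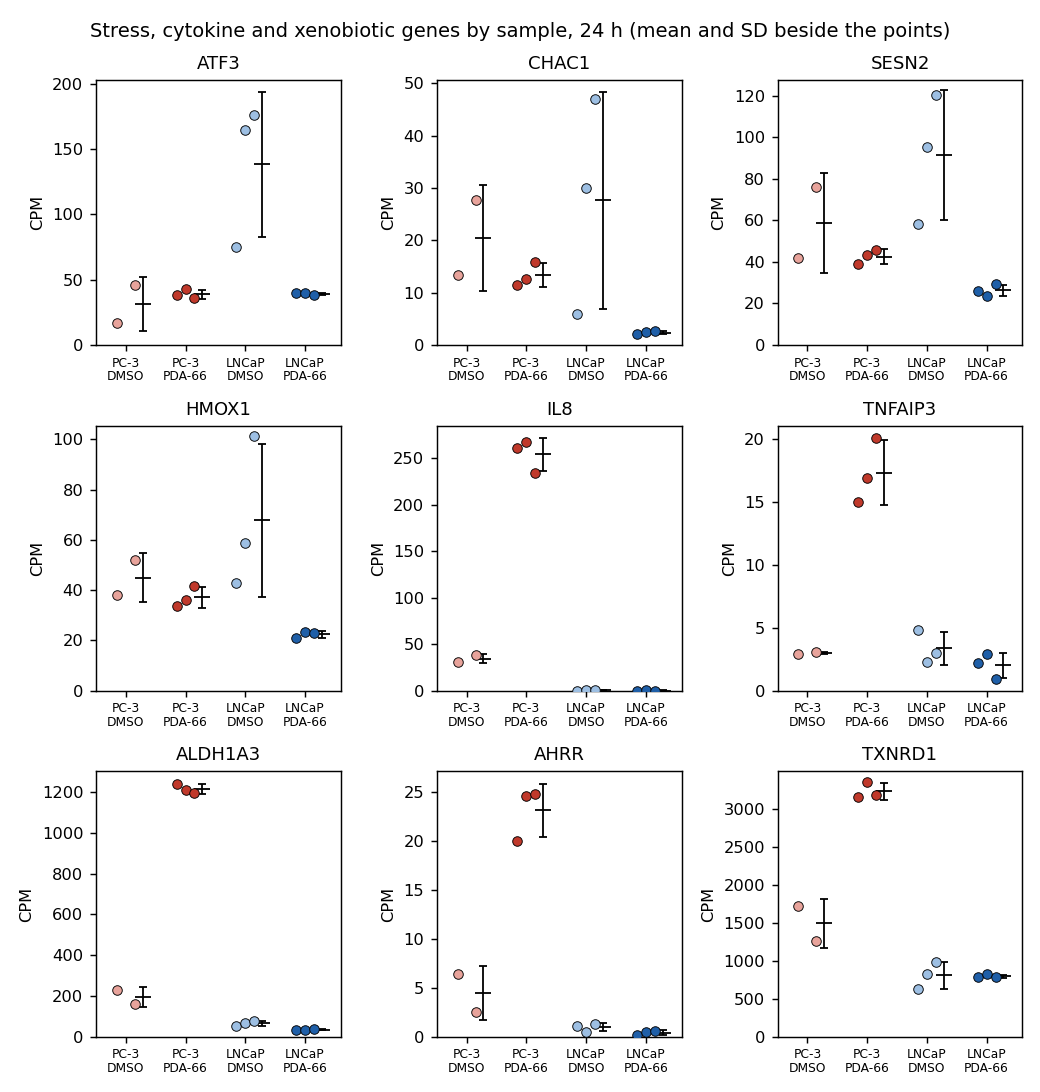
CPM of 9 stress, cytokine and xenobiotic genes in each of the 11 samples (points), with the group mean and SD beside them. ATF3, CHAC1, SESN2 and HMOX1 are lower under PDA-66 than in each LNCaP DMSO sample, while IL8, TNFAIP3, ALDH1A3, AHRR and TXNRD1 are higher under PDA-66 than in each PC-3 DMSO sample.

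Some chaperones of the endoplasmic reticulum had a lower response in PC-3. Of 18 tested, 5 differed, all with a lower response in PC-3 (27.8% beside 15%, median difference of the list -0.57 [-0.98 without PC-3 DMSO replicate 3 to 0.15 without PC-3 DMSO replicate 2]). By themselves, 10 of the 18 fell in PC-3 and 4 in LNCaP, where 2758 and 1555 of all 14844 genes fell. HSP90B1, the chaperone GRP94, was at 2836 and 1261 CPM in the PC-3 DMSO samples, 718, 796 and 725 CPM in PC-3 after PDA-66, 1556, 1586 and 1226 CPM in the LNCaP DMSO samples and 1373, 1503 and 1423 CPM in LNCaP after PDA-66. PC-3 DMSO replicate 2 held more than 2 times the level of replicate 3, both above all PC-3 PDA-66 samples (difference -1.43 ± 0.30, adjusted p = 0.00599). EDEM1, which delivers misfolded glycoproteins to degradation, fell in PC-3 from 461 and 303 to 160.2, 163 and 154 CPM (difference -1.05 ± 0.20, adjusted p = 0.00300). HSPA5, the chaperone BiP, went from 1924 and 894 to 613, 697 and 693 CPM in PC-3 (difference -0.98 ± 0.29, adjusted p = 0.0324). The call of HSPA5 came in only 2 of the 11 fits without 1 library (adjusted p up to 0.253, without PC-3 DMSO replicate 2). The count of calls moved between 3 without PC-3 PDA-66 replicate 2, LNCaP DMSO replicate 3 or LNCaP PDA-66 replicate 2 and 12 without PC-3 DMSO replicate 3, and without PC-3 DMSO replicate 2 there were 2 higher and 2 lower calls.

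Several heat shock chaperones of the cytosol and the mitochondria rose in each line, and the list's share of different responses was that of all genes. Of 20 tested, 12 rose in PC-3 and 7 in LNCaP, where 2743 and 1445 of all 14844 genes rose. None fell in PC-3 and 1 fell in LNCaP. The response differed for 3 (15% beside 15%, median difference 0.24 [0.15 without LNCaP DMSO replicate 1 to 0.35]), each higher in PC-3. HSPD1, the mitochondrial chaperonin, rose in PC-3 from 1245 and 1186 to 1945, 1966 and 1881 CPM and was at 1141, 1389 and 1262 and 1119, 1171 and 1121 CPM in LNCaP (difference 0.82 ± 0.15, adjusted p = 0.00243). The others were HSPA4L (1.24 ± 0.30) and HSPA4 (0.50 ± 0.16). The number of calls went to 6 without LNCaP DMSO replicate 1. HSPA4 was called in 4 of the 11 fits that left out 1 library (adjusted p up to 0.121). HSPA4L missed the threshold without PC-3 DMSO replicate 3 (adjusted p = 0.071).

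Of 18 targets of NRF2, the factor of the antioxidant response, 6 differed (4 higher and 2 lower in PC-3, 33.3% beside 15%, median difference 0.11 [0.07 without LNCaP PDA-66 replicate 1 to 0.18 without PC-3 DMSO replicate 3]). TXNRD1, thioredoxin reductase, rose in PC-3 from 1721 and 1258 to 3155, 3357 and 3176 CPM and overlapped in LNCaP at 626, 819 and 982 and 787, 819 and 783 CPM (difference 1.14 ± 0.22, adjusted p = 0.00367). GCLM, a subunit of the enzyme that starts glutathione synthesis, rose in PC-3 by 0.94 on the log2 scale (difference 0.81 ± 0.20, adjusted p = 0.0162). HMOX1, heme oxygenase, fell in LNCaP from 42.9, 58.8 and 101 to 20.8, 23.5 and 22.8 CPM (difference 1.32 ± 0.35, adjusted p = 0.0201). One of the 2 with a lower response in PC-3 was NQO1 (difference -0.75 ± 0.22, adjusted p = 0.031). It also belongs to the list of AHR targets, where its call is described below. The list's count moved between 2 without LNCaP PDA-66 replicate 1 and 7 without LNCaP DMSO replicate 1. HMOX1 was called in 8 of the 11 fits that left out 1 library (adjusted p up to 0.0692). GCLM missed the threshold without PC-3 DMSO replicate 3 (adjusted p = 0.0541).

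Few genes of growth arrest and the DNA damage response set the lines apart. Of 28 tested, 4 differed, 14.3% beside 15% of all genes, with a median difference of 0.37 [0.23 without LNCaP DMSO replicate 1 to 0.59 without LNCaP DMSO replicate 3] and median responses of -0.03 in PC-3 and -0.41 in LNCaP. TP53INP1, an autophagy and cell death gene, fell in PC-3 from 32.8 and 21.2 to 8.09, 7.72 and 6.4 CPM (difference -1.43 ± 0.28, adjusted p = 0.00381) and was called in every fit run at a threshold of 0.05. SESN2, GADD45A and RRM2B had higher responses in PC-3, by 1.33, 0.95 and 0.71, and SESN2 also belongs to the ATF4 list. CDKN1A, the cell cycle inhibitor p21, was at 50.3 and 39.1 CPM in the PC-3 DMSO samples, 73.1, 76.5 and 80.9 CPM in PC-3 after PDA-66, 687, 174 and 238 CPM in the LNCaP DMSO samples and 338, 304 and 316 CPM in LNCaP after PDA-66. Its PC-3 response was 0.79 (adjusted p = 0.00107), while LNCaP DMSO replicate 1 stood above and replicates 2 and 3 below the PDA-66 samples, and the difference of 0.98 ± 0.51 did not pass (adjusted p = 0.217). MDM2, a ubiquitin ligase, had LNCaP DMSO replicate 1 at 811 CPM and a difference of 0.44 ± 0.32 (adjusted p = 0.384). Without LNCaP DMSO replicate 1 these differences were 0.19 and 0.07. CDKN1A was called without LNCaP DMSO replicate 2 (1.31, adjusted p = 0.048). Leaving out 1 library moved this count between 2 in 5 of the 11 fits and 8 without LNCaP DMSO replicate 2. GADD45A and RRM2B were called in 5 of the 11 fits that left out 1 library (adjusted p up to 0.0762 and 0.167). SESN2 missed the threshold without PC-3 DMSO replicate 2 (adjusted p = 0.0662).

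The aryl hydrocarbon receptor, AHR, senses aromatic ligands and induces enzymes that oxidize them. Of 8 targets tested, 7 rose in PC-3 and 3 in LNCaP, and 4 differed, 2 in each direction (50% beside 15%, median difference 0.85 [0.15 without LNCaP DMSO replicate 1 to 1.12]). With the filter at 1 CPM in at least 2 samples of each line, the median was 0.16. Only 3 of the 8 reached a mean of 1 CPM in a group of each line. Of these, CYP1A1 and NQO1 had lower and TIPARP had higher responses in PC-3. CYP1A1, the classical target, was at 13.1 and 4.43 CPM in the PC-3 DMSO samples, 25.7, 24 and 25.4 CPM in PC-3 after PDA-66, 0.914, 0.411 and 0.619 CPM in the LNCaP DMSO samples and 6.79, 6.93 and 7.91 CPM in LNCaP after PDA-66. It rose in both lines, further in LNCaP, where it started near 1 CPM or below (difference -1.92 ± 0.52, adjusted p = 0.0226). NQO1, a quinone reductase, likewise rose by 0.63 on the log2 scale in PC-3 and by 1.36 in LNCaP (difference -0.75 ± 0.22, adjusted p = 0.031). TIPARP, which ADP-ribosylates the receptor, rose in PC-3 from 102 and 91 to 189.6, 191 and 166 CPM and stayed at 12.1, 13.6 and 15.8 and 12.9, 12.2 and 12.7 CPM in LNCaP (difference 1.05 ± 0.18, adjusted p = 0.00188). AHRR, the repressor of the receptor, rose in PC-3 from 6.42 and 2.52 to 20.02, 24.6 and 24.8 CPM and was at 1.12, 0.494 and 1.24 and 0.136, 0.447 and 0.615 CPM in LNCaP (difference 3.66 ± 0.67, adjusted p = 0.00244), with 58.7% of its exon bases shared with a readthrough gene. CYP1B1 rose in PC-3 from 11.5 and 5.52 to 114, 112 and 100.4 CPM, and LNCaP had 1 read in 6 libraries. The AHR message was at 145 and 144 CPM in PC-3 and 2.74, 5.26 and 5.41 CPM in LNCaP DMSO samples, and its difference of 0.75 ± 0.27 did not pass (adjusted p = 0.0779). AHR was called without LNCaP DMSO replicate 1 (1.06, adjusted p = 0.0013). The count of the list moved to 2 without PC-3 DMSO replicate 2, LNCaP DMSO replicate 2 or LNCaP DMSO replicate 3. CYP1A1 was called in 8 of the 11 fits that left out 1 library (adjusted p up to 0.0904) and NQO1 in 2 (adjusted p up to 0.131).

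Among 15 genes of retinol oxidation and glucuronidation, 3 differed (2 higher and 1 lower in PC-3, 20% beside 15%, median difference 0.62 [-0.29 without LNCaP DMSO replicate 3 to 0.92]). Only 4 of the 15 reached 1 CPM in both lines, so the median rests largely on genes with few reads in a line. ALDH1A3 makes retinoic acid and marks aggressive carcinoma cells. It lies at chr15:101417919-101456831 on the plus strand (GRCh37) and was at 231 and 162 CPM in the PC-3 DMSO samples, 1243, 1211 and 1196 CPM in PC-3 after PDA-66, 51, 66.7 and 75.8 CPM in the LNCaP DMSO samples and 33.6, 34.8 and 35.8 CPM in LNCaP after PDA-66. All PC-3 samples under PDA-66 were more than 5 times the higher control, while each LNCaP sample under PDA-66 was below each control. The PC-3 response was 2.64 (adjusted p = 5.22e-07) and the LNCaP response -0.89 (adjusted p = 0.00516), a difference of 3.52 ± 0.23 (adjusted p = 8.10e-07) that was called under every alternative. An antisense gene shares 32.1% of its exon bases, and whether counting used strand is not given in the sources used here. RDH11, a retinal reductase, fell in LNCaP from 845, 980.4 and 972 to 431, 427 and 437 CPM (difference 0.79 ± 0.15, adjusted p = 0.00286). DHRS3, which returns retinal to retinol, fell in PC-3 from 153 and 144 to 32.4, 28.9 and 35.3 CPM (difference -1.49 ± 0.43, adjusted p = 0.0288). The count of calls moved to 6 without LNCaP DMSO replicate 1. DHRS3 was called in 4 of the 11 fits that left out 1 library (adjusted p up to 0.0812).

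Cell cycle genes rose in both lines, and few differed. Of 29 mitotic genes, 15 rose in PC-3 and 24 in LNCaP and none fell, with medians of 0.55 and 1.11. Only 3 differed, UBE2C, CDK1 and CENPF (10.3% against 15%), each lower in PC-3, and the median difference was -0.65 [-1.03 without LNCaP DMSO replicate 1 to -0.33 without LNCaP DMSO replicate 3]. CDK1, the kinase that drives entry into mitosis, was at 207 and 246 CPM in the PC-3 DMSO samples, 363, 297 and 234 CPM in PC-3 after PDA-66, 152, 133 and 59.5 CPM in the LNCaP DMSO samples and 327, 422 and 372 CPM in LNCaP after PDA-66 (difference -1.31 ± 0.37, adjusted p = 0.0273). LNCaP DMSO replicate 3 was lowest of that group. UBE2C, which feeds the anaphase ligase, rose in LNCaP from 40.1, 42.9 and 23.9 to 74.8, 72.2 and 76 CPM (difference -0.98 ± 0.26, adjusted p = 0.0193). CCNB1, cyclin B1, had LNCaP DMSO values of 222, 101 and 65 CPM and PDA-66 values of 258, 291 and 274 CPM, and its difference of -0.55 ± 0.50 did not pass (adjusted p = 0.501). The number of calls went between 0 without PC-3 DMSO replicate 3 or PC-3 PDA-66 replicate 2 and 18 without LNCaP DMSO replicate 1. CDK1 was called in 6 of the 11 fits that left out 1 library (adjusted p up to 0.132) and CENPF in 3 (adjusted p up to 0.201). UBE2C missed the threshold without PC-3 DMSO replicate 3 or PC-3 PDA-66 replicate 2 (adjusted p up to 0.144). CCNB1 was called without LNCaP DMSO replicate 1 (-1.15, adjusted p = 0.0255).

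The replication genes rose together in both lines. Of 17 genes of origin licensing and the MCM helicase, 15 rose in PC-3 and all 17 in LNCaP, and MCM7 (-0.57 ± 0.16) and CDT1 (-0.76 ± 0.25) differed (11.8% beside 15%, median difference -0.42 [-0.52 to -0.15 without LNCaP DMSO replicate 3]). MCM2 rose in PC-3 from 157 and 121 to 234, 221 and 237 CPM and in LNCaP from 156, 119.9 and 94.4 to 288, 269.97 and 267 CPM (difference -0.42 ± 0.22, adjusted p = 0.224). Of 22 replication fork factors, 18 rose in each line and FEN1 alone differed (-0.82 ± 0.26, 4.55% beside 15%, median of the list -0.20 [-0.30 to 0.01 without LNCaP DMSO replicate 3]), a flap endonuclease that rose by 0.89 in PC-3 and 1.699 in LNCaP. PCNA, the sliding clamp, had a difference of -0.71 ± 0.28 (adjusted p = 0.105). The first count moved between 0 in 6 of the 11 fits and 6 without LNCaP DMSO replicate 1, and the second between 0 in 8 of the 11 fits and 6 without LNCaP DMSO replicate 1. MCM7 was called in 5 of the 11 fits that left out 1 library (adjusted p up to 0.0951), CDT1 in 3 (adjusted p up to 0.346) and FEN1 in 1 (adjusted p up to 0.148). MCM2 and PCNA were called without LNCaP DMSO replicate 1 (-0.59, adjusted p = 0.0273 and -0.97, adjusted p = 0.00444).

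At the G1/S boundary, 4 of 15 genes differed, all lower in PC-3 (26.7% beside 15%, median difference -0.17 [-0.32 without LNCaP DMSO replicate 2 to 0.04 without LNCaP DMSO replicate 3]). CCND1, cyclin D1, fell in PC-3 from 693 and 681 to 488, 523 and 539 CPM and rose in LNCaP from 279, 253 and 243 to 334, 346 and 352 CPM (difference -0.82 ± 0.14, adjusted p = 0.00194), and it was called in every fit at that threshold. The factors E2F1 (-0.88 ± 0.22) and E2F2 (-1.19 ± 0.30) rose further in LNCaP, and CDK4 (-0.55 ± 0.15) completed the 4. CCNE2, cyclin E2, rose by 1.26 in PC-3 and 1.28 in LNCaP, with a difference of -0.03 ± 0.39 (adjusted p = 0.9998). Leaving out 1 library moved this count to 1 without PC-3 DMSO replicate 3. CDK4 was called in 5 of the 11 fits that left out 1 library (adjusted p up to 0.119). E2F1 and E2F2 missed the threshold without PC-3 DMSO replicate 3 (adjusted p = 0.0825 and 0.100).

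The INK4 inhibitors, which block the cyclin D kinases, set the lines apart. All 4 INK4 genes had a lower response in PC-3, out of 7 CDK inhibitors tested (57.1% beside 15%, median difference of the list -0.94 [-1.15 to -0.72]). CDKN2C, p18, was at 86.9 and 89.3 CPM in the PC-3 DMSO samples, 67.2, 63.4 and 58.2 CPM in PC-3 after PDA-66, 22, 17.8 and 6.73 CPM in the LNCaP DMSO samples and 57.7, 60.03 and 55.5 CPM in LNCaP after PDA-66, as the plot of tubulin genes also shows. It fell in PC-3, and in LNCaP each PDA-66 sample was more than 2 times the highest control (difference -2.38 ± 0.37, adjusted p = 9.69e-04). CDKN2B, p15, fell in PC-3 from 252 and 316 to 67.1, 70.2 and 64.2 CPM (difference -1.44 ± 0.27, adjusted p = 0.00266), and CDKN2A, p16 and ARF, from 196 and 206 to 70.2, 69.9 and 87.9 CPM (difference -1.27 ± 0.20, adjusted p = 0.00102). Both were under 6 CPM in every LNCaP sample. CDKN2D, p19, rose in LNCaP by 1.13 on the log2 scale (difference -0.94 ± 0.26, adjusted p = 0.024), and CDKN1B, p27, missed the threshold (-0.57 ± 0.22, adjusted p = 0.0912). CDKN1B was called without LNCaP DMSO replicate 2 (-0.78, adjusted p = 0.0103). CDKN2D was called in 4 of the 11 fits that left out 1 library (adjusted p up to 0.0885).

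In the BCL2 family of apoptosis regulators, 4 of 16 genes differed, 2 in each direction (25% beside 15%, median difference 0.19 [-0.10 without LNCaP DMSO replicate 1 to 0.27]). MCL1, which protects cells in mitotic arrest, fell in PC-3 from 393 and 431 to 192, 200 and 191 CPM and overlapped in LNCaP at 204, 288 and 194 and 204, 213 and 207 CPM (difference -0.95 ± 0.19, adjusted p = 0.00493). BMF, a pro-apoptotic member, fell in PC-3 from 10.2 and 6.74 to 2.68, 2.74 and 4.2 CPM (difference -1.498 ± 0.28, adjusted p = 0.0028). The pro-apoptotic PMAIP1, or NOXA, fell in LNCaP (response -1.03, difference 0.97 ± 0.29, adjusted p = 0.0352). HRK was called on under 3 CPM in every sample, with 1 read in the PC-3 DMSO samples and 10 in the PC-3 PDA-66 samples. BBC3, or PUMA, fell in both lines (responses of -1.600 in PC-3 and -0.87 in LNCaP), and did not differ at the threshold (adjusted p = 0.144). Its count moved between 2 in 5 of the 11 fits and 7 without LNCaP DMSO replicate 1. PMAIP1 and HRK were called in 3 of the 11 fits that left out 1 library (adjusted p up to 0.0982 and 0.113). BBC3 was called without PC-3 DMSO replicate 2 (-1.01, adjusted p = 0.0400).

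Of 17 luminal and androgen-driven genes, 6 differed (2 higher and 4 lower in PC-3, 35.3% beside 15%, median difference -0.25 [-0.36 to -0.08 without PC-3 DMSO replicate 3]), and most androgen-driven genes had too few reads in PC-3 for a response to be measured. HOXB13, the prostate homeobox factor that both lines express, fell in PC-3 from 820.1 and 763 to 437, 415 and 458 CPM and overlapped in LNCaP at 479, 368 and 362 and 479.7, 444 and 460.3 CPM (difference -1.05 ± 0.17, adjusted p = 0.00128). ACPP, prostatic acid phosphatase, fell in both lines (responses of -2.43 in PC-3 and -1.16 in LNCaP, difference -1.27 ± 0.25, adjusted p = 0.00364). STEAP2, a metalloreductase, fell in LNCaP from 1057, 1547 and 1235 to 743, 811 and 770.1 CPM (difference 1.19 ± 0.26, adjusted p = 0.00771). The call of TRPM8 (-2.49) rested on under 6 CPM in PC-3. 

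Among the markers of cell type, 2 of 8 luminal genes (25%, HOXB13 among them), 2 of 6 mesenchymal or basal-type genes (33.3%) and 2 of 4 epithelial genes (50%) differed. These shares of few genes stand beside 15% of all genes. Medians of these lists were -0.18 [-0.43 without PC-3 PDA-66 replicate 2 to -0.02 without PC-3 DMSO replicate 2], 0.22 [0.16 to 0.60 without LNCaP PDA-66 replicate 3] and -0.60 [-0.72 to -0.52], and 0.10 [-0.35 without LNCaP DMSO replicate 3 to 0.74 without PC-3 DMSO replicate 3] for the blood, vessel and stroma genes. EGFR, a growth factor receptor, rose in PC-3 from 39.7 and 16.3 to 87.3, 88.5 and 90.9 CPM (difference 1.41 ± 0.34, adjusted p = 0.0117). AXL, a receptor kinase of mesenchymal cells, rose in PC-3 from 40.2 and 32.4 to 147, 154 and 171 CPM, with 8 reads over the LNCaP controls and 2 under PDA-66 (adjusted p = 0.0148). CDH1, E-cadherin, fell in PC-3 from 8.47 and 3.81 to 1.52, 1.12 and 1.44 CPM and held at 771, 784 and 753 and 809, 809.7 and 798 CPM in LNCaP (difference -2.23 ± 0.32, adjusted p = 6.12e-04). KRT18, a simple keratin, had a difference of -0.55 ± 0.17 (adjusted p = 0.0381). The mesenchymal count moved to 1 without LNCaP DMSO replicate 1, the luminal one to 1 without PC-3 DMSO replicate 3 and the epithelial one between 1 in 6 of the 11 fits and 3 without PC-3 PDA-66 replicate 3. KRT18 was called in 2 of the 11 fits that left out 1 library (adjusted p up to 0.101). AXL missed the threshold without LNCaP DMSO replicate 1 (adjusted p = 0.0878).

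For 23 genes of cholesterol and fatty acid synthesis, 3 differed, all lower in PC-3 (13% against 15%, median difference -0.37 [-0.49 to -0.01 without PC-3 DMSO replicate 2]). INSIG1, which retains the sterol sensor in the endoplasmic reticulum, fell in PC-3 from 68.2 and 62.6 to 35.7, 42.3 and 39.1 CPM and rose in LNCaP from 145, 62.8 and 80.7 to 192, 204 and 196 CPM (difference -1.78 ± 0.32, adjusted p = 0.00214). SCD, the fatty acid desaturase, had a difference of -1.002 ± 0.28 and FDPS, farnesyl diphosphate synthase, one of -0.67 ± 0.20. HMGCS1, an early enzyme of cholesterol synthesis, did not pass (-0.15 ± 0.20, adjusted p = 0.644). The count of calls moved between 1 in 4 of the 11 fits and 8 without LNCaP DMSO replicate 1. SCD was called in 5 of the 11 fits that left out 1 library (adjusted p up to 0.177) and FDPS in 2 (adjusted p up to 0.0945).

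MYC, a driver of growth and ribosome production, fell in PC-3 from 738 and 801 to 406, 377 and 379.8 CPM and held at 264, 197 and 298 and 251, 252 and 265 CPM in LNCaP (difference -1.004 ± 0.19, adjusted p = 0.00315). With RRS1 (-0.88 ± 0.23) and FBL (-0.62 ± 0.17) it was 1 of 3 called among 17 genes of MYC and ribosome biogenesis, with 17.6% beside 15% and a median difference of -0.04 [-0.10 without PC-3 PDA-66 replicate 3 to -0.01 without LNCaP DMSO replicate 3] (0.05 with scaling by library size only). The number of calls went to 1 without PC-3 DMSO replicate 3. FBL was called in 5 of the 11 fits that left out 1 library (adjusted p up to 0.138). RRS1 missed the threshold without PC-3 DMSO replicate 3 (adjusted p = 0.164).

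Cytokine genes rose in PC-3. Of 12 cytokines and NF-kappaB targets, 7 rose and 1 fell in PC-3, 1 rose in LNCaP, and 5 differed (4 higher and 1 lower in PC-3, 41.7% beside 15%, median difference 1.36 [1.13 to 1.88]). Only 3 of the 12 reached 1 CPM in both lines. IL8, the neutrophil chemokine CXCL8, was at 30.9 and 38.1 CPM in the PC-3 DMSO samples, 260.4, 267 and 234 CPM in PC-3 after PDA-66, 0.211, 0.329 and 0.619 CPM in the LNCaP DMSO samples and 0.136, 0.447 and 0.231 CPM in LNCaP after PDA-66. It rose in every PC-3 sample above both controls, and in LNCaP it stayed under 1 CPM (difference 3.38 ± 0.58, adjusted p = 0.00182). TNFAIP3, or A20, a feedback inhibitor of NF-kappaB that lies at chr6:138188351-138204451 on the plus strand (GRCh37), was at 2.94 and 3.06 CPM in the PC-3 DMSO samples, 15, 16.9 and 20.1 CPM in PC-3 after PDA-66, 4.85, 2.3 and 3.02 CPM in the LNCaP DMSO samples and 2.24, 2.9 and 0.922 CPM in LNCaP after PDA-66. Its PC-3 groups stood apart and its LNCaP groups overlapped (difference 3.28 ± 0.47, adjusted p = 5.95e-04). IL11 rose in PC-3 from 2.8 and 2.66 to 7.55, 7.91 and 8.53 CPM (difference 2.12 ± 0.46, adjusted p = 0.00707). NFKBIA, the inhibitor of NF-kappaB, rose in LNCaP alone, by 0.58 on the log2 scale (difference -0.58 ± 0.17, adjusted p = 0.0302). Leaving out 1 library moved this count between 3 in 7 of the 11 fits and 5 without LNCaP DMSO replicate 1 or LNCaP DMSO replicate 2. NFKBIA was called in 3 of the 11 fits that left out 1 library (adjusted p up to 0.0918).

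In the other signalling lists fewer members set the lines apart. Of 15 AP-1 and immediate early genes, 7 fell in PC-3 and 6 in LNCaP, where 2758 and 1555 of all 14844 genes fell. ATF3, described above, and JUNB (-1.34 ± 0.34, adjusted p = 0.016) differed (13.3% beside 15%, median difference 0.39 [0.21 without LNCaP DMSO replicate 2 to 1.01 without PC-3 DMSO replicate 3]). FOS fell in both lines (responses of -2.400 in PC-3 and -2.602 in LNCaP, difference 0.19 ± 0.51, adjusted p = 0.855). Of 13 feedback genes of MAP kinase, 4 differed (30.8% beside 15%, median difference 0.47 [0.24 without LNCaP DMSO replicate 3 to 0.82 without LNCaP PDA-66 replicate 3]). DUSP4, a MAP kinase phosphatase, fell in LNCaP from 37.2, 85.9 and 80.7 to 28.2, 27.9 and 27.9 CPM and overlapped in PC-3 at 276 and 291 and 273, 272 and 285 CPM (difference 1.24 ± 0.32, adjusted p = 0.0163). ETV5 (1.44) and SPRY2 (2.09) were under 2 CPM in LNCaP, and SPRY1 was lower in PC-3 (-0.65 ± 0.18). These counts moved to 4 without PC-3 DMSO replicate 2, to 5 without PC-3 DMSO replicate 3 and to 6 without LNCaP DMSO replicate 1 for AP-1, and to 1 without LNCaP PDA-66 replicate 2 and to 2 without LNCaP PDA-66 replicate 3 for MAP kinase.

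Of 15 cytoskeletal targets of SRF and YAP, 4 differed, all higher in PC-3 (26.7% beside 15%, median difference 0.43 [0.34 to 0.66 without PC-3 PDA-66 replicate 1]). AJUBA, a LIM protein of cell junctions, rose in PC-3 from 64.3 and 85 to 102, 113 and 122 CPM and fell in LNCaP from 37, 68.5 and 72.9 to 30.01, 31.4 and 29.5 CPM (difference 1.56 ± 0.29, adjusted p = 0.0029). FLNA, an actin crosslinker, rose in PC-3 (1.08 ± 0.29), and AMOTL2 fell in LNCaP (1.12 ± 0.32), while ANKRD1 was under 2 CPM throughout. Of 18 interferon-stimulated genes, 4 differed, DDX58 (1.16 ± 0.23), IFIT2 (1.38 ± 0.35) and MX1 (1.06 ± 0.33) higher and OAS1 (-1.28 ± 0.33) lower in PC-3 (22.2% beside 15%, median difference -0.01 [-0.27 without LNCaP DMSO replicate 1 to 0.09 without PC-3 DMSO replicate 3]). The SRF and YAP count moved between 1 without PC-3 PDA-66 replicate 3 and 5 without PC-3 DMSO replicate 2 or LNCaP DMSO replicate 1, and the interferon count between 2 in 4 of the 11 fits and 6 without LNCaP DMSO replicate 1. ETV5, SPRY2 and OAS1 were called in 8 of the 11 fits that left out 1 library (adjusted p up to 0.0636, 0.0927 and 0.0563), SPRY1 in 7 (adjusted p up to 0.122), AMOTL2 in 4 (adjusted p up to 0.118) and ANKRD1 and MX1 in 2 (adjusted p up to 0.102 and 0.147). JUNB missed the threshold without PC-3 DMSO replicate 3 (adjusted p = 0.126), FLNA did so without PC-3 PDA-66 replicate 3 (adjusted p = 0.053) and IFIT2 did so without PC-3 DMSO replicate 3 or LNCaP PDA-66 replicate 3 (adjusted p up to 0.0546).

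**Figure D5:**
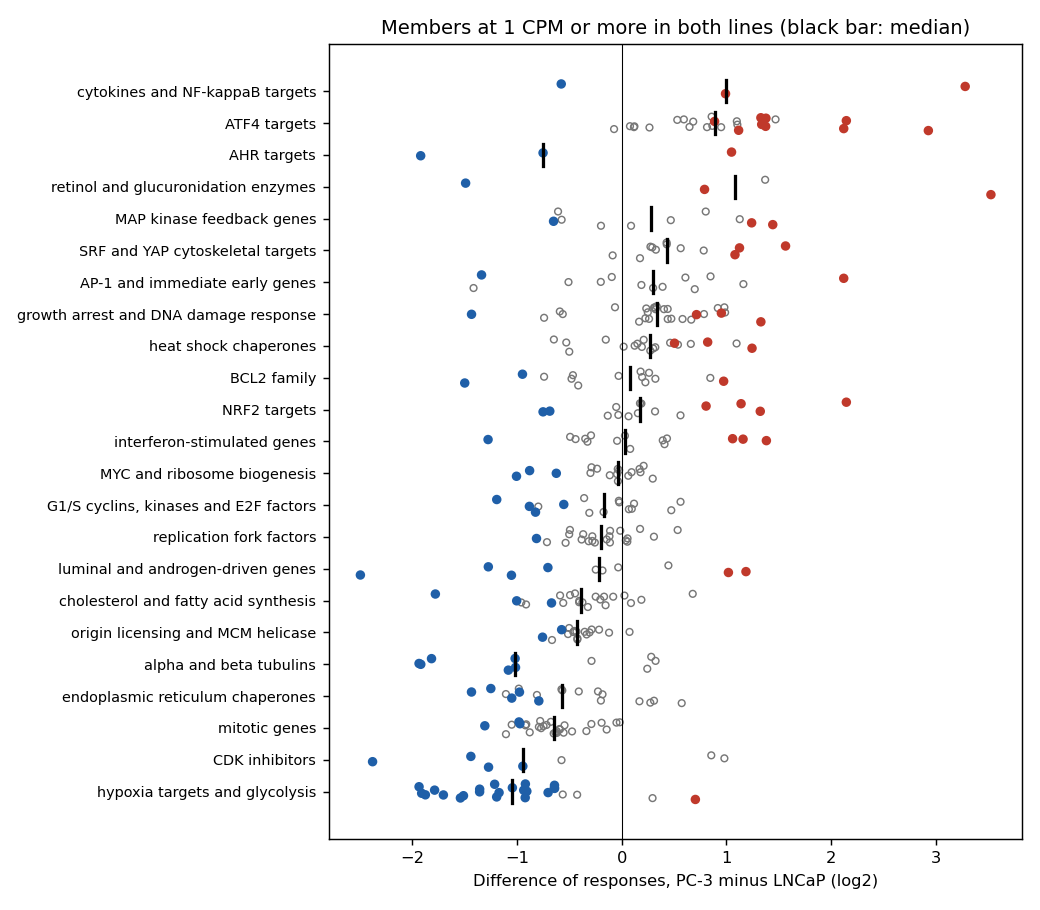
Difference of responses (PC-3 minus LNCaP, log2) of each list member at 1 CPM or more in both lines, with black bars for the median of these members, which can differ from the median over all members tested. Filled points were called (red higher, blue lower in PC-3), and open points were not; the hypoxia list is filled almost throughout on the left.

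The genes with the widest differences at 5 CPM or more in both lines belonged to no one list. KRT75, a hair follicle keratin, was at 193 and 250.4 CPM in the PC-3 DMSO samples, 237, 269.9 and 321 CPM in PC-3 after PDA-66, 4.57, 5.51 and 5.8 CPM in the LNCaP DMSO samples and 0.204, 0.223 and 0.0768 CPM in LNCaP after PDA-66. It was nearly lost in LNCaP, where a low level fell further, and its PC-3 groups overlapped (difference 5.204 ± 0.39, adjusted p = 4.03e-06). CCDC141, a centrosome-associated protein, was at 41.1 and 41.6 CPM in the PC-3 DMSO samples, 13.8, 12.4 and 11.2 CPM in PC-3 after PDA-66, 2.04, 1.81 and 2.01 CPM in the LNCaP DMSO samples and 7.94, 6.55 and 7.22 CPM in LNCaP after PDA-66. It fell in PC-3 and rose in LNCaP, with no overlap between a line's groups, so the levels came closer (difference -3.61 ± 0.22, adjusted p = 7.47e-07). KITLG, the ligand of the KIT receptor, rose in PC-3 from 91.2 and 108 to 343, 356 and 304 CPM and fell in LNCaP from 11.5, 18.8 and 10.9 to 6.86, 7.08 and 6.76 CPM (difference 2.73 ± 0.26, adjusted p = 2.98e-05). RELN, the secreted protein reelin, rose in PC-3 from 58.8 and 44.5 to 125, 122 and 125 CPM and fell in LNCaP from 5.55, 12.6 and 13.1 to 3.94, 3.65 and 3.996 CPM (difference 2.69 ± 0.34, adjusted p = 2.62e-04).

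The other genes at the upper end were ALDH1A3 and CHAC1, described above, KRT80 (3.13), AKAP5 (2.83), SDSL (2.47), TTC39B (2.39) and TP53I11 (2.303). At the lower end FCGBP, a mucin-like protein, fell in PC-3 from 124 and 37.9 to 5.29, 6.79 and 7.08 CPM, with controls that differed by more than 3 times (difference -3.15 ± 0.51, adjusted p = 0.00118). MSMP, a secreted microprotein, fell in PC-3 from 234 and 196 to 23.4, 25.5 and 29.8 CPM (difference -2.78 ± 0.22, adjusted p = 5.35e-06), although all of its exon bases lie under exons of RGP1. SLC6A6, the taurine transporter, fell in PC-3 from 244 and 159.9 to 97.6, 91.8 and 95.3 CPM and rose in LNCaP from 24.3, 6.75 and 13.8 to 41.4, 42.6 and 40.8 CPM (difference -2.55 ± 0.41, adjusted p = 0.00112). SERPINE2, a protease inhibitor, fell in PC-3 from 301 and 349.6 to 133, 144 and 143 CPM and rose in LNCaP from 15.6, 10.1 and 14.8 to 26.2, 26.4 and 26.1 CPM (difference -2.17 ± 0.20, adjusted p = 2.47e-05). CDKN2C and CDH1, described above, CSGALNACT1 (-2.42), DUSP2 (-2.38) and GPER (-2.21) completed the lower end.

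A group of 6 genes named by the rule for 1 line were measured at 5 CPM or more in 1 line and under 1 CPM in the other, and their fitted folds depend on the prior count. RGS20, SIRPB1 and PHEX had 5, 6 and 8 reads over the LNCaP controls and no read under PDA-66, while RGS20 rose in PC-3 from 1.98 and 1.97 to 5.78, 6.41 and 7.08 CPM. TSTD1, PDE9A and FLJ35282 were named at the other end. TSTD1 had no read in PC-3 under PDA-66, and FLJ35282 fell in PC-3 from 10.7 and 17 to 2.19, 2.12 and 2.48 CPM.

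RGS20 was called in 8 of the 11 fits that left out 1 library (adjusted p up to 0.0895), SIRPB1 in 1 (adjusted p up to 0.142) and TSTD1 and PDE9A in 6 (adjusted p up to 0.0937 and 0.267). Some alternatives ended calls of the genes named above. With the 12 h samples also in the fit, the calls of TUBA1C, TUBA1A, DDIT3, HSPA4, GCLM, GADD45A, RRM2B, NQO1, DHRS3, CDK1, CENPF, MCM7, CDT1, FEN1, E2F1, CDK4, CDKN2D, PMAIP1, STEAP2, EGFR, KRT18, SCD, FDPS, RRS1, FBL, NFKBIA, JUNB, SPRY1, FLNA, AMOTL2, ANKRD1, IFIT2, MX1, SDSL, SIRPB1, PHEX, TSTD1, PDE9A and HSPA5 were lost. In limma voom, the calls of CHAC1, DDIT3, RRM2B, CYP1A1, CENPF, CDT1, AMOTL2, MX1 and HSPA5 were lost. In DESeq2's Wald test, the calls of DDIT3, DHRS3, CDK1 and PDE9A were lost. With no filter on low counts, the calls of HSPA4 and KRT18 were lost. With scaling by library size only, the calls of NQO1, CENPF, MCM7, CDT1, FEN1, CDK4, KRT18, FDPS and NFKBIA were lost. With the DESeq2 size factors, the calls of CENPF, CDT1, FEN1 and KRT18 were lost. Limma voom also called CA9 (-3.49, adjusted p = 0.00715) and CYP1B1 (3.30, adjusted p = 0.0251), and AHR was called with scaling by library size only, by the likelihood ratio test and by DESeq2's Wald test (adjusted p = 0.0478, 0.0321 and 0.026).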

How the data were processed

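Poly(A) RNA of PC-3 and LNCaP cells treated with PDA-66 or DMSO was sequenced as single reads. The authors aligned the reads with STAR to hg19, counted them per RefSeq gene and deposited 1 table of raw read counts per gene symbol for each cell line, so the values are whole, unnormalised counts. The submitters' processing notes name BWA, STAR 2.3.1s and edgeR 3.14.0. Strand use and the handling of reads with several matches are not given in the sources used here. The last PC-3 column carried trailing semicolons, which were stripped. The canine samples of the series were not used here, and of the 12 h samples only an alternative made use.

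The 11 samples after 24 h and under DMSO, with 11923105 to 16326495 counts each, were joined by gene symbol. Genes that passed edgeR's filterByExpr entered a fit of 4 group means (edgeR 4.0.16, R 4.3.3) with TMM normalization. The interaction of line and treatment was tested by the quasi-likelihood F test (glmQLFit and glmQLFTest) with Benjamini-Hochberg adjustment over all genes tested, and a call is an adjusted p under 0.05. The response of each line was tested on the same genes in a fit of its own. Every p printed with a difference is that adjusted p. CPM values are counts scaled to the TMM-adjusted library size, and log2 CPM for the comparison of libraries used a prior count of 2.

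Named genes were the 10 at either end of the difference among called genes with a mean of 5 CPM or more in a group of each line, up to 5 for each order of opposite signs, and the 3 at either end that were under 1 CPM in 1 line. They also included, from each of 28 lists, its best known members and the 4 with the smallest p, and the regulators and markers. Some of these genes, and the regulators as a list, are not reported here. The comparison, the members and the lists were chosen with earlier results of these data known. Gene positions came from the GRCh37 annotation, the same build as the authors' hg19, and promoter windows from RefSeq on GRCh38.p14.

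Alternatives were the DESeq2 size factors (DESeq2 1.42.0), library size only, no filter, 1 CPM in at least 2 samples of each line, limma voom (limma 3.58.1), DESeq2's Wald test, edgeR's likelihood ratio test, the 12 h samples in the fit, a replicate block, an adjusted p under 0.001, a log2 size of at least 1 and leaving out each sample. The fits were checked on simulated data. Python 3.11.15, pandas 2.3.3 and matplotlib 3.10.9 were used for summaries and plots.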

Additional observations from a re-analysis of the deposited data

Results flagged for a closer look

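For 10 genes the 24 h response ran in opposite directions in the lines, passed the test within each, and differed by the interaction test (edgeR quasi-likelihood, adjusted p from 7.47e-07 for CCDC141 to 0.0235 for PCDHGB3). They lead the 183 such genes by the smaller of the responses, so their order was chosen by these values. Those that rose in PC-3 and fell in LNCaP were C8orf4 (difference 4.16), MSLN (6.66), PCDHGB3 (4.54), LOC100506394 (3.65) and KCND1 (2.86). C8orf4, also called TCIM, went from 0.137 and 0.409 to 1.1, 1.12 and 1.58 CPM in PC-3 and from 2.95, 5.92 and 3.79 to 0.815, 1.12 and 1.23 CPM in LNCaP. All of these genes except LOC100506394 were under 3 CPM on average in PC-3, and MSLN, mesothelin, had 9 reads over the LNCaP DMSO samples and none under PDA-66, so that its fitted value depends on the prior count.

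Those that fell in PC-3 and rose in LNCaP were CCDC141 (-3.61) and SLC6A6 (-2.55), both described above, SGK2 (-3.51), FAM115C (-2.34) and DSG1 (-3.18). FAM115C went from 14.3 and 11.6 to 6.45, 5.17 and 4.81 CPM in PC-3 and from 1.83, 1.07 and 1.55 to 3.19, 3.13 and 3.3 CPM in LNCaP. SGK2, a kinase, and DSG1, a desmosomal cadherin, were under 1 CPM on average in both PC-3 groups. PCDHGB3 missed the threshold without PC-3 DMSO replicate 3 or PC-3 PDA-66 replicate 2 (adjusted p up to 0.119) and DSG1 did so without PC-3 DMSO replicate 2 (adjusted p = 0.0747). Exons of PCDHGA1 on the same strand cover 45.6% of the exon bases of PCDHGB3.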

How the results depend on the processing

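The 2220 differing genes became 2183 with the DESeq2 size factors, 2331 with library size only, 2040 of 20425 with no filter, 2190 of 11656 with the filter at 1 CPM in each line, 2766 by the likelihood ratio test, 2529 by DESeq2's Wald test and 2274 by limma voom. With the 12 h samples also in the fit 906 differed (527 higher and 379 lower in PC-3), 384 genes were called in the LNCaP response and 21 moved in opposite directions. At an adjusted p under 0.001, 157 differed (69 higher and 88 lower), 1485 were called in the PC-3 and 14 in the LNCaP response, and 0 moved in opposite directions in edgeR's test (510 at an unadjusted p under 0.05 in each test). With a log2 size of at least 1 added, 1040 differed (586 higher and 454 lower), and 1785 and 819 were called in PC-3 and LNCaP. The likelihood ratio test gave 280 genes in opposite directions. Leaving out 1 library at a time gave 1358 to 3477 differing genes, 680 to 1879 higher and 668 to 1598 lower in PC-3, 3930 to 6289 in the PC-3 and 729 to 5953 in the LNCaP response, and 35 to 476 in opposite directions. Of the 2220 genes, 967 were called in all 11 of these fits, 724 in all 9 other alternatives at the same threshold and 618 in both. The share higher in PC-3 was 49.5%, and it was 63.5% with library size only, 60.3% without PC-3 DMSO replicate 2 and 58.2% with the 12 h samples. Same-numbered samples did not deviate together (correlations of -0.037 and -0.088 in PC-3 and 0.0075, 0.12 and 0.03 in LNCaP). With so few samples per group, these values cannot settle whether the numbers pair the samples. With a replicate block within each line 1535 genes differed, 1455 of them among the 2220. Of the genes named above as called, HSPA5, RRM2B, CDKN2D, MCM7, CDT1, CDK4, NFKBIA, HSPA4, SPRY1, FDPS, FBL, KRT18, ANKRD1 and TSTD1 missed the threshold in that fit. Some small differences changed sign, none of them called where the sign was turned. That of CCNE2 was 0.0032 with the DESeq2 size factors, 0.067 with library size only and 0.0017 by DESeq2's Wald test. Leaving out 1 library gave a range from -0.27 to 0.38 for CCNE2, from -0.398 to 0.796 for ATF4, from -0.32 to 1.14 for FOS, from -0.25 to 0.37 for HSPA1A and from -0.37 to 0.22 for HMGCS1. HIF1A went from -0.062 to 0.44, and the latter, without PC-3 DMSO replicate 2, was called (adjusted p = 0.0489). Where a setting changed a call, the cause was not tested. Both PC-3 controls and LNCaP DMSO replicate 1 limit what these counts show, as do genes with few reads in 1 line.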
